A study of Mus musculus with 20 samples.

Results

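Grafts of prostate epithelium (PE) were compared with grafts of seminal vesicle epithelium (SVE), each grown with the same kind of mesenchyme, with 4 libraries per group out of the 20 libraries of the series. PE and SVE are mouse epithelial cells taken from C57Bl/6J donors aged 2 months, and the labels give the mouse background as hybrid 129/SvImJ and C57Bl/6J. Both were combined with urogenital sinus mesenchyme (UGM) of Sprague Dawley rats and collected 3 months after implantation. Both groups are labelled as wild type, and neither label names a construct or a hairpin, although the protocols call the epithelium engineered and describe doxycycline in drinking water over 3 months for the whole series. All genes with a log2 value of at least 5 in at least 4 of the 20 libraries were compared, which were 13456 of the 23284 genes in the deposited table. The host's own cells, the rat mesenchyme and the mouse epithelium were sequenced together, and rat reads on mouse genes cannot be told apart.

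The prostate buds from the urogenital sinus, an endodermal tissue, whereas the seminal vesicle grows out of the Wolffian duct, which is mesodermal. Both are androgen-dependent glands whose luminal cells secrete large amounts of protein into the seminal fluid. Prostate secretion is known for its zinc, citrate and polyamines, and rodent seminal vesicle secretion for the Svs proteins that form the copulatory plug. Such cells rely on the endoplasmic reticulum (ER), where secreted proteins are folded, glycosylated and checked before they leave for the Golgi.

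Depth, as read from the values, was 20.5, 20.8, 14.9 and 18.0 M reads in PE replicates 1 to 4 and 24.9, 25.0, 20.3 and 23.7 M reads in SVE replicates 1 to 4. The replicate numbers only name the libraries. Whether replicates are separate animals is not stated, and the p-values then measure only how far these samples differ, which may be technical. Most genes of the prostate and seminal vesicle secretory lists went with the labels. In the prostate list 14 of 20 were higher in PE and 3 lower, Spink3 among them, and in the seminal vesicle list 12 of 14 were lower in PE and 2 higher. Past the test were 85% and 100% of these lists, against 51.8% of all genes tested. However, 3 libraries stood apart in ways that touch the results that follow. SVE replicate 1 held prostate transcripts: over 31 genes that were far higher in PE (at least 11 in every PE library, and at least 5 log2 units apart without this library), it held a median of 25.9% of the PE mean, with quartiles of 21.6% and 27.6%, against 1.11%, 0.261% and 0.175% in SVE replicates 2, 3 and 4. The exceptions within those 31 genes were Msmb, which encodes beta-microseminoprotein, at 0.509% of the PE mean in that library, and the beta-defensin gene Defb50, at 1.62%. PE replicate 3 stood apart most widely, with 264 genes at least 4-fold from the median of the other PE libraries. That count was 71 to 176 for the other PE libraries and 152 for SVE replicate 1. The spermine-binding protein gene Sbp was at 19.38 in PE replicate 3 and 5.63, 7.35 and 8.14 in PE replicates 1, 2 and 4. PE replicate 3 also held the protease inhibitor gene Spink3 at 17.14, against 5.41, 4.92 and 6.72 in the other PE libraries. PE replicate 4 lay between PE replicates 1 and 2 for 130 of the 132 genes that differed at least 2-fold between those (98.5%), where PE replicate 3 did so for 62 of 101 such genes (61.4%), in both cases among genes averaging above 8 over the 3 libraries. A sum of 0.58 times PE replicate 1 and 0.38 times PE replicate 2 left residuals with an SD of 0.127 on the log2 scale in PE replicate 4 over 7677 genes, against 0.172 from the single library most like it. The squared residual was 2.76 times the variance that counting alone gives. That was the lowest such figure, and the other PE and SVE libraries ran from 3.43 to 21.6. Whether PE replicate 4 shares material with PE replicates 1 and 2 was not tested. It was kept as a sample of its own, and n = 4 holds only if it is separate. The macrophage gene Emr1 was high in PE replicates 2 and 4, at 12.32 and 11.46, and stood at 6.71 and 8.62 in PE replicates 1 and 3, against 7.05 to 7.66 in SVE.

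Of the 13456 genes, 6971 (51.8%) passed the test between PE and SVE, by limma with Benjamini-Hochberg adjustment over all genes tested, at an adjusted p below 0.05. In PE 3548 (26.4%) were higher and 3423 (25.4%) lower, and the median difference over all genes, as PE minus SVE on the log2 scale, was 0.022. Differences of at least 2-fold that passed the test were found in 995 genes higher in PE (7.39%) and in 1056 lower in PE (7.85%). In 48.9% of the genes the values of the PE libraries did not overlap those of the SVE libraries. SVE replicate 1 was the highest SVE library in 76.1% of the 995 genes at least 2-fold higher in PE, and the lowest in 64.8% of the 1056 genes at least 2-fold lower, against 28.6% and 29.0% of all tested genes. PE replicate 3 was the lowest PE library in 49.6% of the 995 and 44.7% of the 1056, against 34.1% of all tested genes. Without SVE replicate 1, PE replicate 3 and PE replicate 4 together, 2835 genes were higher and 2783 lower. With so many genes past the test, a count of members in a gene group is to be read against those shares.

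Secretory transcripts took up much of each library. The prostate secretory list held 26.7%, 29.5%, 29.1% and 26.6% of the summed antilog values in the PE libraries, against 4.09%, 0.356%, 0.212% and 0.239% in the SVE libraries. Its mean share was thus 28.0% ± 1.5 in PE and 1.23% ± 1.91 in SVE (SD, n = 4 each; exact permutation test, two-sided, p = 0.0286, the smallest that 4 against 4 libraries allow). SVE replicate 1 was far above the other SVE libraries, and without it the SVE mean was 0.269%. The seminal vesicle secretory list held 1.64%, 1.52%, 0.397% and 1.69% in the PE libraries, against 49.4%, 62.4%, 56.7% and 62.9% in the SVE libraries, with means of 1.31% ± 0.615 and 57.8% ± 6.30 (exact permutation test, two-sided, p = 0.0286). The low PE library was replicate 3, and Svs2, the most abundant seminal vesicle transcript, stood at 17.31, 17.26, 13.86 and 17.32 in the PE libraries, against 21.57, 22.37, 21.92 and 22.42 in the SVE libraries. Both lists were chosen with earlier results of these data known. They hold the top transcript of each group, 9530053A07Rik in PE and Svs2 in SVE. Separation of the shares was thus built into the lists, and the p-values lend no support to it. Fewer cells of a type and less RNA per cell cannot be told apart in such bulk samples.

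**Figure D1:**
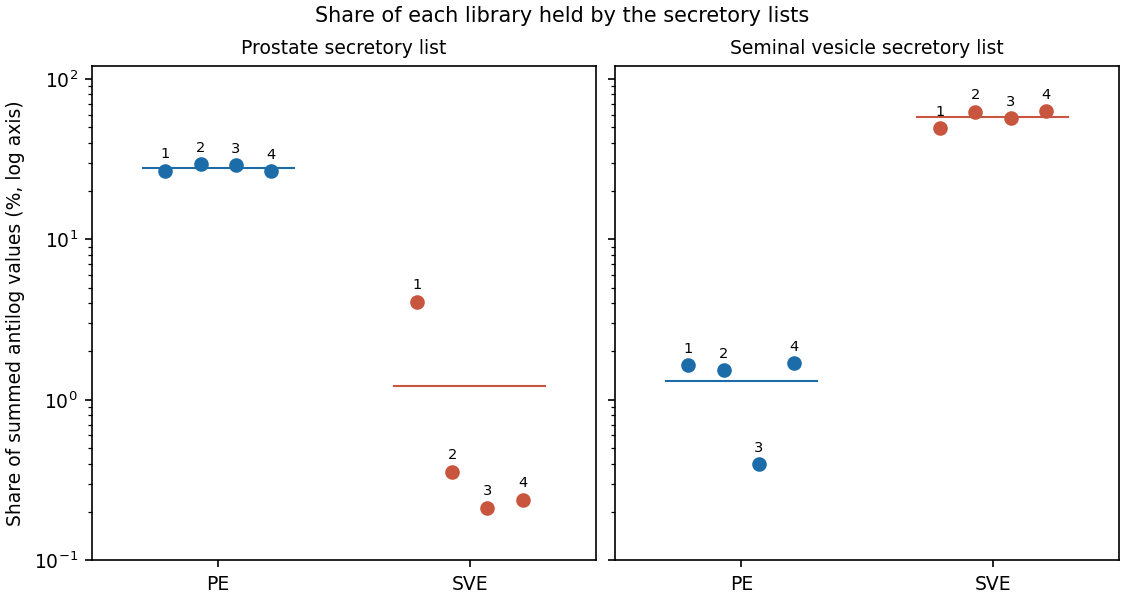
Share of each library's summed antilog values (percent, log axis) held by the prostate secretory list (left) and the seminal vesicle secretory list (right), with 1 point per library, its replicate number above it and a line at the group mean. Prostate secretory transcripts hold 26.6% to 29.5% of each PE library and 4.09% of SVE replicate 1, and the seminal vesicle secretory share of PE replicate 3 is 0.397%.

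Transcription factors separated the grafts in both directions, with more of them lower in PE. Among 371 tested members of 14 families, 77 were higher in PE and 141 lower, so that 58.8% passed the test against 51.8% of all genes, with a median difference of -0.16. Hoxb13, the posterior homeobox gene of prostate and hindgut, read 12.20, 11.99, 12.43 and 12.07 in PE, against 10.20, 5.26, 2.86 and 1.49 in SVE. The groups did not overlap, and SVE replicate 1 was far above the other SVE libraries. The difference was 7.22 ± 1.57 (SE; adjusted p = 0.00448). Sp8, a zinc finger gene active in limb and brain patterning, read 10.37, 10.29, 10.43 and 10.39 in PE, against 8.11, 3.68, 3.85 and 3.13 in SVE, and rose by 5.68 ± 0.95 (adjusted p = 0.0011). Its relative Sp5 was higher by 4.98 and Sall3, a spalt-family zinc finger gene, by 4.17. Esrrg, an orphan nuclear receptor of oxidative metabolism, was higher by 4.34 ± 0.64, with 8.86, 8.84, 9.50 and 8.78 in PE and 6.81, 4.34, 3.26 and 4.21 in SVE. Pax9, a paired-box gene of endodermal pouches, was higher by 3.34. In each of these rises SVE replicate 1 was the highest SVE library.

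Factors lower in PE included genes of the Wolffian duct and kidney. The list of Wolffian regulators as a whole went both ways. Of 17 tested, 5 were higher in PE, Hoxa10 and Hoxa11 among them, and 7 lower. That was 70.6% past the test, against 51.8% of all genes, with a median of -0.48. Irx1, an Iroquois homeobox gene, read 3.02, 3.1, 3.54 and 3.28 in PE, against 8.92, 9.59, 9.62 and 9.87 in SVE, a fall of 6.27 ± 0.22 (adjusted p = 3.77e-07). Values that low are near the level around which the lowest genes of the table scatter (median 2.27, SD 0.47), where the size of a difference is uncertain. Pou3f3, a POU-domain gene of the developing kidney and brain, read 6.46, 6.25, 4.13 and 6.62 in PE, against 10.66 to 11.04 in SVE. PE replicate 3 was the lowest library, and the difference was -5.03 ± 0.49 (adjusted p = 6.5e-05). Pax2, a paired-box gene of the Wolffian duct, differed by -5.21, and Tfap2b, an AP-2 gene of the distal nephron, by -4.08, and in both PE replicate 3 was again lowest, at 3.01 and 3.16. Emx2, a homeobox gene needed for the urogenital tract, read 6.92, 6.96, 4.05 and 6.92 in PE, against 8.18, 8.46, 8.25 and 8.50 in SVE, so that its difference of -2.13 was -1.41 without PE replicate 3. Nr4a3, an inducible orphan nuclear receptor, was lower by 4.50 on the log2 scale, with PE values of 4.56 to 6.23 and SVE values of 9.90 to 10.32.

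Hox genes differed in both directions. Of 24 tested, 7 were higher in PE and 12 lower (79.2% past the test, against 51.8% of all genes). The groups did not overlap in 17, where 48.9% of all genes did not. Hoxb8 read 6.91, 6.61, 6.13 and 6.91 in PE, against 10.27, 10.54, 10.80 and 10.79 in SVE, a fall of 3.96 ± 0.19 (adjusted p = 1.55e-06). Hoxb2 fell by 3.58, Hoxd9 by 3.55 and Hoxd3 by 3.44. The members that rose besides Hoxb13 were all of the A cluster: Hoxa9 by 2.09, Hoxa10 by 1.48, Hoxa3 by 1.24, Hoxa5 by 0.83, Hoxa7 by 0.81 and Hoxa11 by 0.55. The call of Hoxa11 was lost under 9 alternatives, among them without SVE replicate 1 and without PE replicate 3. Hoxd13 and Hoxa13, the most posterior genes of their clusters, had differences of -0.40 and -0.57 and did not pass the test (adjusted p = 0.0918 and 0.0994). Hoxa13 passed under 4 alternatives, among them without PE replicate 3 and with library weights, and Hoxd13 passed without SVE replicate 2.

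Steroid receptor genes and factors that work with them differed in both directions. Esr1 and Esr2, the oestrogen receptor genes, were higher in PE by 1.56 and 1.43. Gata2, a zinc finger factor of steroid-responsive genes, fell by 1.74. Foxa1, a pioneer factor that opens chromatin for steroid receptors, read 11.84, 11.60, 12.30 and 11.79 in PE, against 10.24, 9.19, 9.18 and 9.09 in SVE. The list of androgen response genes showed no common direction, with 10 of 25 higher in PE and 9 lower, and 10 and 5 without PE replicate 4. Past the test with all libraries were 76% of them, against 51.8% of all genes. Slc45a3 and Tmprss2, prostate genes under androgen control, rose by 4.48 and 3.44, whereas Sgk1, a hormone-induced kinase gene, fell by 2.12. Fkbp5, a chaperone gene of steroid receptors, differed by -0.65 with overlapping groups. Its call was lost under 9 alternatives, among them without any single SVE library and without PE replicate 4.

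**Figure D2:**
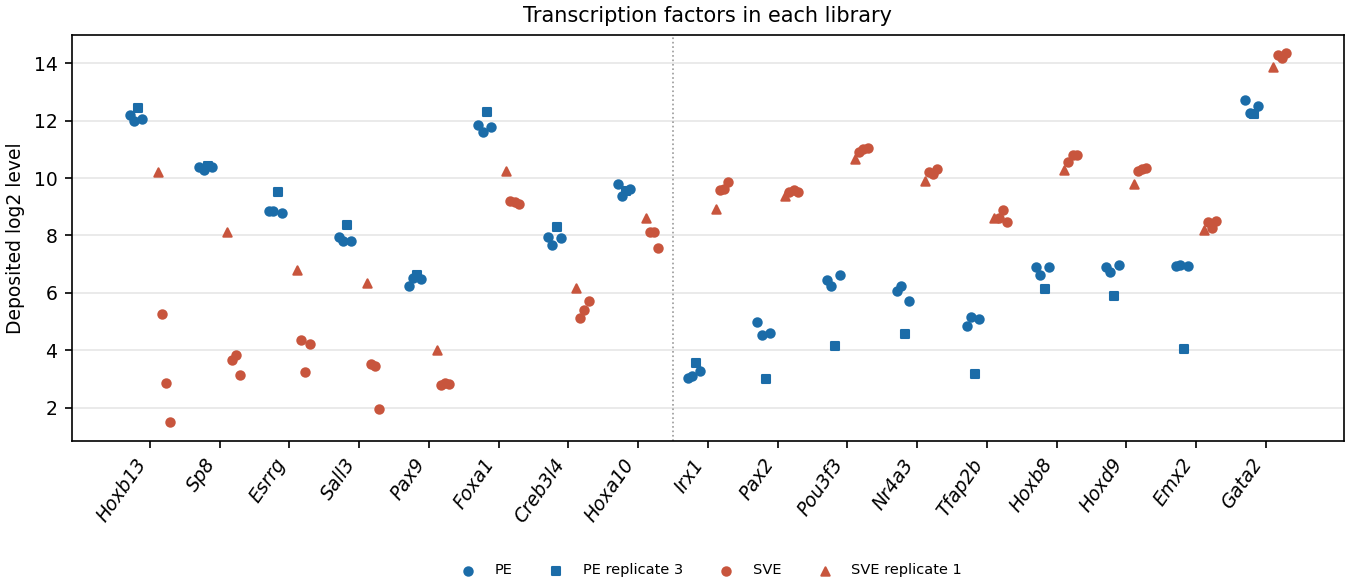
Deposited log2 level of 17 transcription factor genes in each library (PE in blue on the left of each gene, SVE in red on the right; square, PE replicate 3; triangle, SVE replicate 1). The genes left of the dotted line were higher in PE, where SVE replicate 1 is the highest SVE library, and those right of it were lower in PE.

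The protein-folding machinery of the ER was higher in PE. Of 28 chaperone and folding genes, 22 were higher and 1 lower (82.1% past the test, against 51.8% of all genes). Their median difference was 0.78, against 0.022 over all genes. Hspa5, the gene of the ER chaperone BiP, read 15.70, 15.47, 15.05 and 15.61 in PE, against 14.18, 14.34, 13.87 and 14.31 in SVE, with no overlap and a difference of 1.28 ± 0.18 (adjusted p = 0.000418). For Hspa5 SVE replicate 1 lay within the other SVE libraries. Its mean log2 level over the list was 11.50, the highest in SVE, against 11.43, 11.12 and 11.35 in SVE replicates 2, 3 and 4. Without it the median difference of the list was 0.80. Pdia6, a protein disulfide isomerase gene, read 15.19, 14.97, 14.65 and 15.06 in PE, against 13.68, 12.50, 12.21 and 12.55 in SVE, and rose by 2.24 ± 0.29 (adjusted p = 0.000291). The folding genes Fkbp11, Creld2 and Pdia4 rose by 2.14, 1.91 and 1.85, Dnajc3, a co-chaperone of BiP, by 1.46 ± 0.13, and Hsp90b1, the gene of GRP94, by 1.07 ± 0.15. The exception was Ero1lb, an oxidase gene that feeds disulfide bonds to secreted proteins. It read 8.53, 8.11, 8.89 and 8.34 in PE, against 12.43, 12.91, 12.46 and 12.71 in SVE, and fell by 4.16 ± 0.17 (adjusted p = 7.84e-07). Qsox1, another disulfide-forming oxidase gene, fell as well, by 3.93 ± 0.22, with PE at 10.30 to 11.09 and SVE at 14.14 to 14.97.

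Promoters of these genes were searched for the ER stress response element, a bipartite motif bound by NF-Y and ATF6, because the folding genes moved together. The letters searched were CCAAT and CCACG with 9 bases of any kind between them, on both strands, in the 250 bases before the start of each gene (RefSeq, GRCm38.p6). The motif was present in 35 of 27025 genes with such a window (0.130%), and in 8 of the 24 folding genes with a window (33.3%). Among these 8 were Hspa5, Hsp90b1, Pdia6, Dnajc3, Creld2, Calr and Canx, which were all higher in PE, and Ero1lb (Ero1b in RefSeq), which was lower. Over the whole folding list, with or without a match, 22 of 28 were higher. Of 19 genes of ER-associated degradation with a window, Derl3 and Syvn1 held it (10.5%). The windows of the 4 folding genes with the motif that rose most are given with that of Hsp90b1, which held 2 copies, and with that of the 1 gene that fell, each 5′ to 3′ on the gene's strand with the motif in capitals.
Hspa5, chr2:34771840-34772089, plus strand: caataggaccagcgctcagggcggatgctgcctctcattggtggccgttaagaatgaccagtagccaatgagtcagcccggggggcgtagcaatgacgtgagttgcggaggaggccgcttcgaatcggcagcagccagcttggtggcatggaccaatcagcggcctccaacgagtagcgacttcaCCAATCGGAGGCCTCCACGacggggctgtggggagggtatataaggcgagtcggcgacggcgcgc
Hsp90b1, chr10:86705445-86705694, minus strand: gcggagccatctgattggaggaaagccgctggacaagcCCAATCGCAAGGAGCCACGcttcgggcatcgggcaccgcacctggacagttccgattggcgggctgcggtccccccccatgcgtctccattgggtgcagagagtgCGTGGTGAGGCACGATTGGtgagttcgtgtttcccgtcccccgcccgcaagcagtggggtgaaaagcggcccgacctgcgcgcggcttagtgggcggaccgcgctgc
Pdia6, chr12:17266339-17266588, plus strand: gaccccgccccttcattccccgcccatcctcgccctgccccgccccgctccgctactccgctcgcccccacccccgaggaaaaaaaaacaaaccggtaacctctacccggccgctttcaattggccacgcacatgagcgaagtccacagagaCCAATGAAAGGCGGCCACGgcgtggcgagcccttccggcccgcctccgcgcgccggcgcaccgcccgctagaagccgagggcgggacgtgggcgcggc
Dnajc3, chr14:118937682-118937931, plus strand: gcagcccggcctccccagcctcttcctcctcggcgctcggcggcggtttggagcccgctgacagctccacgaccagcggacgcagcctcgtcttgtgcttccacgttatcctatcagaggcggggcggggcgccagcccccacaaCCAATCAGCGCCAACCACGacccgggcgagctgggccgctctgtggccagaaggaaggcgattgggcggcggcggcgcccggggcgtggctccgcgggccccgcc
Creld2, chr15:88819396-88819645, plus strand: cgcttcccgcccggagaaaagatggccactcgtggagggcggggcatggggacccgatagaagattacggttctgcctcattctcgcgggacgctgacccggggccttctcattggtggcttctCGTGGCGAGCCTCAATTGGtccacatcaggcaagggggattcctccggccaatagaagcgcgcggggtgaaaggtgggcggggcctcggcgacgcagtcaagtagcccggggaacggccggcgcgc
Ero1b, chr13:12565633-12565882, plus strand: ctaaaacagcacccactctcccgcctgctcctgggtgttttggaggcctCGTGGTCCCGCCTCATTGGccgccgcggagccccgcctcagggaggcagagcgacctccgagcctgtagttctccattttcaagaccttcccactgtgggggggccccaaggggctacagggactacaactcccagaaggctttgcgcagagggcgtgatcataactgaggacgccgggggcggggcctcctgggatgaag
The first base of the motif lay 65 bases before the start in Hspa5, 98 in Pdia6, 105 in Dnajc3, 126 in Creld2 and 201 in Ero1b, and 212 and 107 in Hsp90b1. A match is a description of these letters, and binding was not measured. How common the motif is in a list does not depend on PE or SVE, and its part in the differences was not tested.

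Among the sensors of unfolded protein and their transcription factors the counts were smaller. Of 21 such genes 9 were higher in PE and 3 lower (57.1% past the test, close to the 51.8% of all genes). Their median was 0.49, which was 0.19 without PE replicate 3 and 0.26 without the 3 libraries that stood apart. Atf6, the ER-bound factor that is cut and sent to the nucleus under folding stress, read 12.93, 12.67, 12.49 and 12.76 in PE, against 11.44, 11.14, 10.83 and 11.10 in SVE, and rose by 1.58 ± 0.14 (adjusted p = 3.44e-05). Creb3l4, a related membrane-bound factor of prostate cells, rose by 2.36, and Eif2ak3, the kinase gene PERK, by 0.58. Xbp1, the factor activated by splicing, had a difference of -0.21 with overlapping groups and did not pass (adjusted p = 0.173). Without SVE replicate 1 its difference was -0.30 and passed (adjusted p = 0.0416), as it did with quantile normalisation and with library weights. Ppp1r15b, a phosphatase subunit that keeps translation on, fell by 0.97 ± 0.06.

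Degradation, translocation and glycosylation at the ER had more genes higher than lower in PE. Of 23 genes of ER-associated degradation, 18 were higher in PE and 1 lower (82.6% past the test, against 51.8% of all genes, median 0.54). Syvn1, its ubiquitin ligase gene, read 11.97, 13.09, 12.28 and 12.56 in PE, against 11.48, 11.23, 10.64 and 10.92 in SVE, a rise of 1.41 ± 0.25 (adjusted p = 0.00155). Derl3, a channel component, rose by 1.20, while Edem3, which trims mannose from misfolded proteins, fell by 1.20. Among 24 translocon and signal peptide genes 13 were higher and 3 lower (66.7% past the test, median 0.27). Srp14 of the signal recognition particle rose by 1.38. N-glycosylation had 21 of 34 genes higher and 3 lower (70.6% past the test, median 0.28). Uggt1, which checks the fold of glycoproteins, rose by 1.22, and Gfpt1, the entry enzyme of the hexosamine pathway, by 1.14. Stt3b, 1 of the 2 catalytic subunits of the oligosaccharyltransferase, fell by 1.40 ± 0.12, with 12.02 to 12.12 in PE and 13.13 to 13.71 in SVE. Its counterpart Stt3a had a difference of 0.22. The call of Stt3a was lost under 12 alternatives, among them without SVE replicate 1, without PE replicate 4 and with the library medians equalised. In transport between ER and Golgi, 23 of 41 COPII and COPI genes were higher and 3 lower (63.4% past the test, median 0.29). Tmed3, a cargo receptor, rose by 1.01.

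Among enzymes that build sugar chains, single members differed widely. In 83 glycosyl and sialyl transferases, 21 were higher in PE and 22 lower, so that 51.8% passed the test, the same share as over all genes. Fut9, which builds the Lewis X epitope, read 12.48, 12.25, 12.27 and 12.43 in PE, against 10.39, 5.54, 3.30 and 2.04 in SVE, and was higher by 7.04 ± 1.51 (adjusted p = 0.00414). SVE replicate 1 stood apart again, and the difference without it was 8.73. Mgat4a, which adds a branch to N-glycans, fell by 4.27, and B3gnt8, which extends poly-lactosamine chains, by 3.16. Galnt2, which starts mucin-type chains, read 10.75, 10.64, 10.47 and 10.66 in PE, against 12.40, 12.67, 12.70 and 12.64 in SVE, a fall of 1.97 ± 0.09 (adjusted p = 1.09e-06). The membrane mucin gene Muc20 rose by 3.82.

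In the general machinery of synthesis, turnover and energy, most members that passed the test were higher in PE. Of 41 proteasome genes 26 were higher in PE and 0 lower (63.4% past the test, against 51.8% of all genes, median 0.29). Of 73 subunits of oxidative phosphorylation 39 were higher and 3 lower (57.5% past the test, median 0.25), and none of the called members reached 2-fold. Examples were Sdhd, a subunit of complex II, with a rise of 0.64 ± 0.10, and Cox4i1 of complex IV, with 0.74. Cytosolic ribosomal protein genes were higher in 30 of 71 and lower in 1 (43.7% past the test, median 0.34), although many of them have processed copies elsewhere in the genome, so that their counts are uncertain. Mitochondrial ribosomal protein genes were higher in 28 of 75 and lower in 3 (41.3%, median 0.19). Of 34 ribosome biogenesis genes 12 were higher and 0 lower (35.3%, median 0.13, and 0.21 without SVE replicate 1), and 7 and 0 without the 3 libraries that stood apart. The shares past the test of these 3 ribosomal lists were below that of all genes. The vacuolar ATPase, the proton pump of secretory granules and lysosomes, had 15 of 18 subunit genes higher and 1 lower (88.9% past the test, median 0.60). Its subunit gene Atp6v1c2 read 13.18, 13.15, 12.91 and 13.13 in PE, against 11.24, 6.53, 3.88 and 3.20 in SVE, and rose by 6.88 ± 1.5 (adjusted p = 0.00445). Atp6v0a1, a membrane subunit, fell by 1.11.

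**Figure D3:**
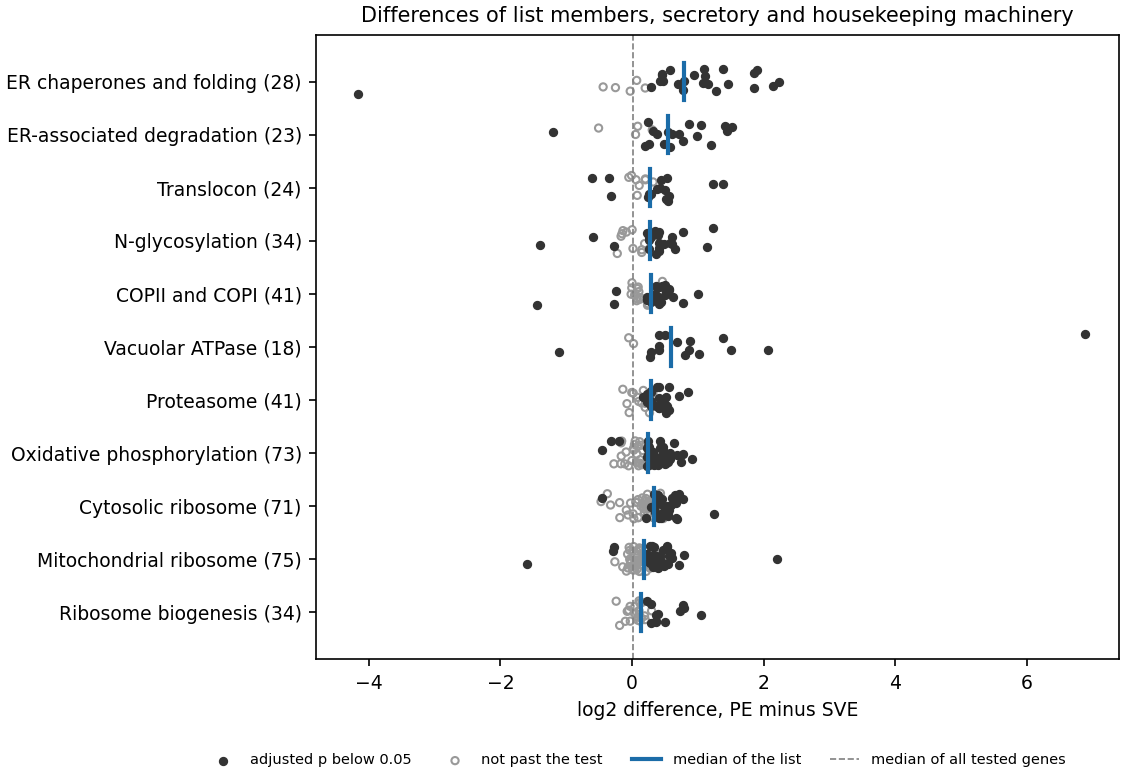
Difference between PE and SVE (log2, PE minus SVE) of each tested member of 11 lists, with the number tested in parentheses (filled, past the test at an adjusted p below 0.05; open, not past it; blue bar, median of the list; dashed line, median of all tested genes, 0.022). The medians run from 0.13 for ribosome biogenesis to 0.78 for ER chaperones, and Ero1lb at -4.16 and Atp6v1c2 at 6.88 lie far from their lists.

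Zinc genes differed in both directions, with 12 of 23 higher in PE and 6 lower (78.3% past the test, against 51.8% of all genes). The 3 metallothionein genes tested, which encode small zinc-binding proteins, were higher. Mt2 read 13.50, 13.38, 12.90 and 13.40 in PE, against 12.04, 9.12, 9.38 and 9.05 in SVE, a rise of 3.40 ± 0.60 (adjusted p = 0.00149), and Mt1 and Mt3 rose by 2.83 and 5.49. Slc30a2, which loads zinc into vesicles, read 12.37, 12.46, 11.74 and 12.39 in PE, against 10.59, 6.86, 6.77 and 5.57 in SVE, and rose by 4.79 ± 0.90 (adjusted p = 0.00212). Slc30a10, of the same family but known for manganese export, read 6.70, 8.77, 8.02 and 8.36 in PE, against 3.63, 2.17, 1.68 and 1.74 in SVE, with a difference of 5.66 ± 0.54. Of 11 importer genes of the Slc39 family 6 were higher and 2 lower, with the largest rises in Slc39a8, by 2.45, and Slc39a4, by 2.40. Slc30a4, another vesicular transporter, went the other way: it read 7.95, 7.69, 9.32 and 7.93 in PE, against 10.03, 10.56, 10.12 and 10.06 in SVE, a fall of 1.97 ± 0.32 (adjusted p = 0.00103). Slc30a1, the exporter at the cell surface, fell by 0.72 with overlapping groups. SVE replicate 1 was the highest SVE library for each of the 7 zinc genes named as higher.

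Citrate genes differed in both directions. Of 38 genes of the citrate cycle and citrate use 17 were higher in PE and 8 lower, with a median of 0.17. That was 65.8% past the test, against 51.8% of all genes. Slc25a1, which carries citrate out of mitochondria, read 10.33, 10.16, 10.13 and 10.23 in PE, against 9.52, 9.06, 9.23 and 9.31 in SVE, and rose by 0.93 ± 0.10 (adjusted p = 9.95e-05). Aco1, the cytosolic aconitase gene, rose by 0.93 and Idh1, the cytosolic isocitrate dehydrogenase gene, by 1.11. Outside that list, Slc13a2, which takes citrate and dicarboxylates into the cell, read 3.46, 2.87, 2.83 and 3.26 in PE, against 9.01, 9.53, 9.47 and 9.66 in SVE, a fall of 6.31 ± 0.20 (adjusted p = 3.51e-07). The PE values lay near the level of the lowest genes. Ank, a membrane protein gene of citrate and pyrophosphate export, read 8.20, 8.23, 12.72 and 8.40 in PE, against 12.30, 12.88, 12.73 and 12.89 in SVE. PE replicate 3 was at the SVE level, and the difference was -3.31 with that library and -4.42 without it. Acly, which splits citrate for lipid synthesis, fell by 0.45, and Got2, the mitochondrial aspartate aminotransferase gene, by 1.01 ± 0.08.

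Glycolysis had no common direction, with 6 of 25 genes higher in PE and 7 lower (52.0% past the test). Ldha, which makes lactate, read 12.27, 12.29, 11.96 and 12.27 in PE, against 10.88, 9.86, 9.74 and 9.77 in SVE, and rose by 2.14 ± 0.24 (adjusted p = 0.000137). The glucose transporter gene Slc2a1 fell by 1.34 ± 0.12, with 9.37 to 9.75 in PE and 10.65 to 11.12 in SVE, and the lactate exporter gene Slc16a3 fell by 2.80. Pfkfb3, a regulator of glycolytic flux, was higher by 2.15, with 11.71, 11.70, 8.74 and 11.68 in PE and 8.34 to 9.30 in SVE, so PE replicate 3 lay among the SVE libraries and the call was lost without PE replicate 4.

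**Figure D4:**
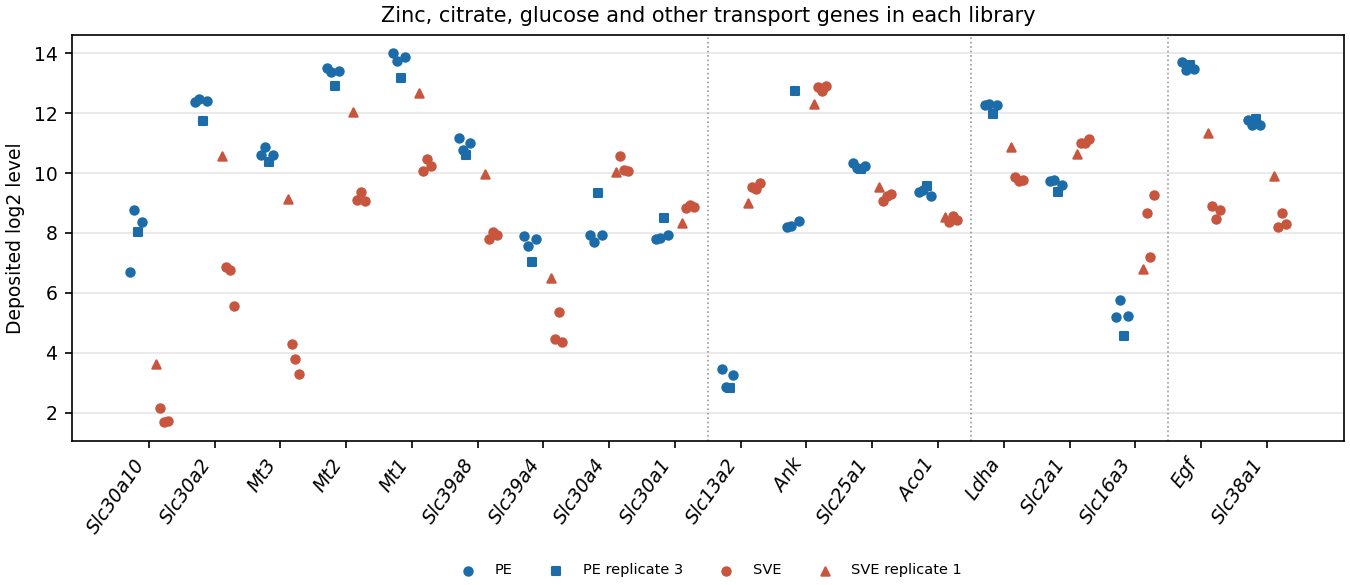
Deposited log2 level of 18 genes in each library (PE in blue on the left of each gene, SVE in red on the right; square, PE replicate 3; triangle, SVE replicate 1), with dotted lines between zinc genes, citrate genes, glucose and lactate genes, and 2 further genes. Slc13a2 is at 2.83 to 3.46 in PE and 9.01 to 9.66 in SVE, and Ank in PE replicate 3 is at the SVE level.

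Sterol genes were more often higher than lower in PE, and fatty acid genes went both ways. Of 31 cholesterol genes 15 were higher in PE and 4 lower (61.3% past the test, against 51.8% of all genes, median 0.35). The counts were 8 and 3 without the 3 libraries that stood apart. Fatty acid synthesis and storage had 10 of 33 higher and 13 lower (69.7% past the test). Elovl6, which lengthens palmitate, read 6.98, 6.63, 5.99 and 6.88 in PE, against 9.23, 9.88, 9.78 and 10.14 in SVE, a fall of 3.14 ± 0.25 (adjusted p = 2.25e-05). Elovl7, an elongase of longer chains, read 8.99, 8.71, 8.56 and 8.76 in PE, against 7.34, 5.19, 5.38 and 4.50 in SVE, and rose by 3.15 ± 0.51 (adjusted p = 0.000962). Acsl3, which activates fatty acids, rose by 2.68 and the desaturase gene Scd1 by 1.68, whereas Acacb, which makes malonyl-CoA at mitochondria, fell by 2.03 ± 0.11. Of 44 genes of fatty acid oxidation and peroxisomes, 15 were higher and 5 lower (45.5% past the test, against 51.8% of all genes).

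Antioxidant genes differed in both directions. Of 47 tested, 16 were higher in PE and 15 lower (66.0% past the test, against 51.8% of all genes). Prdx6, a peroxiredoxin gene among the most abundant in PE, read 17.22, 17.09, 16.92 and 17.11 in PE, against 15.10, 12.73, 12.04 and 12.57 in SVE, and rose by 3.98 ± 0.57 (adjusted p = 0.00049). The glutathione transferase genes Gsto1 and Gsto2 rose by 2.55 and 2.35. Ggt1, which breaks down extracellular glutathione, read 10.22, 9.63, 10.11 and 9.89 in PE, against 12.58, 13.13, 12.85 and 13.12 in SVE, a fall of 2.96 ± 0.16 (adjusted p = 3.09e-06). Gclc, the catalytic subunit of the first step of glutathione synthesis, fell by 1.29 ± 0.07 and its partner Gclm by 0.99.

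Amino acid and polyamine genes were next. Arg2, the mitochondrial arginase gene that yields ornithine, read 9.39, 9.46, 9.51 and 9.44 in PE, against 7.83, 5.43, 5.88 and 5.59 in SVE, and rose by 3.27 ± 0.46 (adjusted p = 0.000459). Among 15 polyamine genes 5 were higher and 2 lower (46.7% past the test). The spermine synthase gene Sms rose by 1.37 and Sat1, which acetylates polyamines, by 1.13, while Smox, which oxidises spermine, fell by 1.76 ± 0.12. Odc1, the ornithine decarboxylase gene, fell by 0.30. Of 32 amino acid and transport genes 10 were higher in PE and 9 lower (59.4% past the test, median -0.04). Prodh, the proline dehydrogenase gene, rose by 3.06 ± 0.40 and Slc38a1, a glutamine transporter gene, by 2.93 ± 0.32. Glul, the glutamine synthetase gene, averaged 12.76 ± 0.20 in PE and 14.43 ± 0.30 in SVE (SD, n = 4 each), with no overlap, and fell by 1.67. In serine and one-carbon metabolism 5 of 26 were higher and 10 lower (57.7% past the test, against 51.8% of all genes). Phgdh, the first enzyme of serine synthesis, rose by 1.72 ± 0.19 and Aldh1l1, the cytosolic formyltetrahydrofolate dehydrogenase gene, by 2.71. The next serine enzymes, Psat1 and Psph, fell by 1.10 and 0.66, and Shmt2, the mitochondrial serine hydroxymethyltransferase gene, by 1.22 ± 0.12.

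Membrane transport genes differed in both directions. Of 223 solute carrier genes 77 were higher in PE and 59 lower (61.0% past the test, against 51.8% of all genes). The falls were led, after Slc13a2, by Slc1a1, a glutamate transporter gene, with 5.41, Slc4a8, a bicarbonate transporter gene, with 5.01, Slc23a1, a vitamin C transporter gene, with 4.61, and Slc6a8, the creatine transporter gene, with 4.48. Among 35 fluid and ion transport genes 12 were higher and 9 lower (60% past the test). Car2, a carbonic anhydrase gene, rose by 2.11 ± 0.22. Slc26a4, an anion exchanger gene, read 5.51, 5.28, 11.42 and 5.76 in PE, against 2.97, 2.22, 2.36 and 2.81 in SVE, so the size of its rise of 4.40 rested on PE replicate 3 and was 2.93 without it. Potassium channel genes were lower in 17 of 40 and higher in 7 (60% past the test). Kcnma1, the large-conductance calcium-activated channel, was higher by 2.54 and Kcnj15, an inward rectifier, lower by 5.19.

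More signalling genes were lower than higher in PE. Of 51 Wnt pathway genes 5 were higher and 26 lower (60.8% past the test, against 51.8% of all genes, median -0.49). Over all genes 25.4% were lower in PE. The ligand gene Wnt10a was lower by 1.54 ± 0.22. Notum, an enzyme that inactivates Wnt ligands, read 5.54, 5.22, 4.72 and 5.43 in PE, against 8.09, 8.33, 8.45 and 8.15 in SVE, a fall of 3.03 ± 0.19 (adjusted p = 5.84e-06). Dkkl1, a gene related to the Dickkopf antagonists, fell by 4.05. Lgr4, a receptor for R-spondins, fell by 1.07, and Axin2, a target gene of the pathway, was higher in PE by 0.54 ± 0.13, with 10.04 to 10.64 in PE and 9.59 to 9.83 in SVE.

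Growth factor genes followed the same split, with a few ligands high in PE. Among 53 FGF, EGF and IGF genes 8 were higher and 23 lower (58.5% past the test, against 51.8% of all genes, median -0.37). Egf, the epidermal growth factor gene, read 13.71, 13.43, 13.59 and 13.47 in PE, against 11.33, 8.92, 8.48 and 8.78 in SVE, and rose by 4.18 ± 0.54 (adjusted p = 0.000295). Fgf10, a mesenchymal ligand needed for prostate and seminal vesicle growth, read 7.49, 7.07, 7.14 and 7.65 in PE, against 9.33, 11.03, 9.86 and 10.42 in SVE, a fall of 2.82 ± 0.32 (adjusted p = 0.000154). The receptor genes Fgfr3 and Igf1r fell by 2.07 and 1.69. Of 53 BMP and TGF-beta genes 9 were higher and 23 lower (60.4% past the test, median -0.20). Bmp7, a ligand gene of prostate epithelium, read 10.96, 10.77, 10.59 and 10.84 in PE, against 9.10, 8.12, 7.35 and 7.70 in SVE, a rise of 2.72 ± 0.32 (adjusted p = 0.000172), and Gdf15, a stress-induced ligand gene, rose by 3.00. The BMP target genes Id1 and Id2 fell by 1.35 and 1.92. Notch genes had 5 of 27 higher and 13 lower (66.7% past the test), and 4 and 8 without PE replicate 4. The ligand gene Jag1 was lower by 0.88. Of 15 Hedgehog genes 1 was higher and 4 lower (33.3% past the test, against 51.8% of all genes).

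Stromal markers too were more often lower than higher in PE. Smooth muscle genes were lower in 13 of 14 and higher in none (92.9% past the test, against 51.8% of all genes, median -1.10). Their mean log2 level over the list ran from 10.70 to 11.23 in PE and from 11.79 to 12.45 in SVE. Myh11, the smooth muscle myosin gene, read 14.63, 14.22, 14.25 and 14.31 in PE, against 15.26, 15.08, 15.75 and 15.17 in SVE. Of 19 fibroblast and matrix genes 0 were higher and 7 lower (36.8% past the test, below the share of all genes). Without PE replicate 4 the counts were 0 and 4. List means ran from 9.74 to 10.02 in PE and from 10.08 to 10.66 in SVE. Endothelial genes were lower in 8 of 13 and higher in 1 (69.2% past the test), with list means from 7.41 to 7.84 in PE and from 8.04 to 8.29 in SVE. Collagen genes were lower in 15 of 33 and higher in 5 (60.6% past the test). Laminin and integrin genes were lower in 15 of 37 and higher in 3 (48.6%, just below the share of all genes). The part of these stromal levels in the Wnt and growth factor differences was not tested. Col4a6, a basement membrane collagen gene, read 13.67, 13.59, 13.09 and 13.50 in PE, against 11.74, 7.62, 6.36 and 5.60 in SVE, and rose by 5.63 ± 1.13 (adjusted p = 0.0029). Lama3, a laminin chain gene of epithelial basement membranes, rose by 3.00 ± 0.36 and Itga6, its integrin receptor gene, by 1.97.

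**Figure D5:**
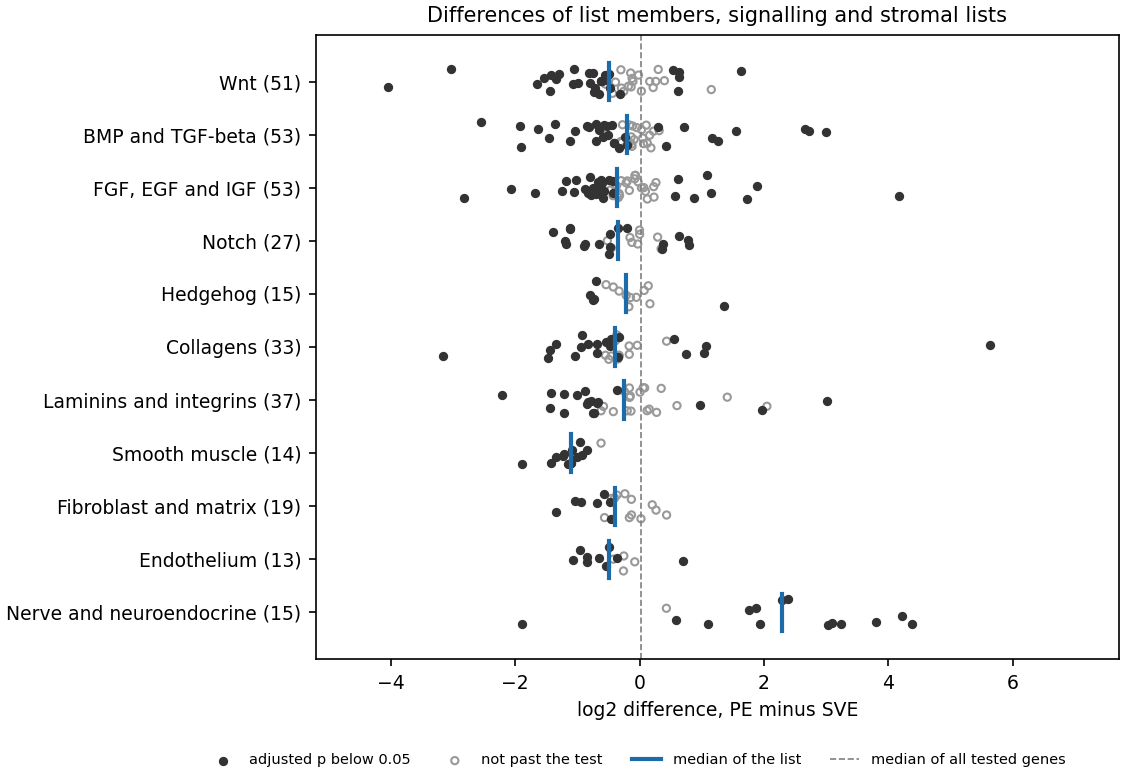
Difference between PE and SVE (log2, PE minus SVE) of each tested member of 11 signalling and stromal lists, with the number tested in parentheses (filled, past the test at an adjusted p below 0.05; open, not past it; blue bar, median of the list; dashed line, median of all tested genes). The medians are -0.49 for Wnt and -1.10 for smooth muscle, and 2.28 for nerve and neuroendocrine genes.

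Other cell types differed as well. Nerve and neuroendocrine genes were higher in PE in 13 of 15 and lower in 1 (93.3% past the test, against 51.8% of all genes, median 2.28). Tubb3, a neuronal tubulin gene, read 7.87, 7.77, 4.84 and 7.63 in PE, against 2.54, 3.15, 2.02 and 2.86 in SVE. PE replicate 3 was the lowest PE library for it and for the list, whose mean log2 level was 5.24 in that library and 6.99 to 7.11 in the other PE libraries, against 4.70, 4.34, 4.43 and 4.28 in SVE. Adipocyte genes were higher in 6 of 8 and lower in none (75% past the test). The groups overlapped, however, in all but 1 of the 8, and 1 was higher without SVE replicate 1. Of 10 leukocyte genes 1 was higher and 1 lower (20% past the test), and Emr1, high in PE replicates 2 and 4, did not pass the test.

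Epithelial identity genes went beyond secretion. Among 19 basal genes 6 were higher in PE and 6 lower (63.2% past the test, against 51.8% of all genes). Trp63, the basal cell factor p63, read 8.48, 7.97, 8.09 and 8.12 in PE, against 9.12, 9.26, 9.50 and 9.34 in SVE, and fell by 1.14 ± 0.12 (adjusted p = 0.000119). Krt5 and Krt14 fell by 0.47 and 1.14, and the call of Krt5 was lost without the 3 libraries that stood apart. Lama3 and Itga6, given above with the laminins and integrins, belong to the same basal list and rose. Krt7, a keratin of simple ducts, fell by 2.08 ± 0.43. The luminal keratins Krt8 and Krt18 had differences of 0.16 and 0.28 and did not pass the test (adjusted p = 0.106 and 0.0532). Both passed with all 20 libraries in 1 fit, and Krt18 passed under 4 alternatives in all. Of 26 luminal and tight junction genes, these keratins included, 9 were higher in PE and 5 lower (53.8% past the test, close to all genes), with the claudin gene Cldn10 higher by 2.73 and the adhesion gene Epcam by 1.73. Upk1a, a uroplakin gene of urothelium, read 10.42, 10.63, 12.24 and 10.34 in PE, against 7.15, 4.49, 6.38 and 2.88 in SVE, a rise of 5.68 ± 0.87 (adjusted p = 0.000704), while Upk2 and Upk3b fell by 2.45 and 3.30.

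Proteases, their inhibitors and defence genes differed in kind. Of 14 kallikreins and other serine proteases 8 were higher in PE and 4 lower (85.7% past the test, against 51.8% of all genes). Plau, the urokinase gene, was lower by 3.15. Mmp7, an epithelial metalloproteinase gene, read 12.67, 12.99, 12.15 and 12.88 in PE, against 10.40, 6.40, 5.06 and 3.12 in SVE, and rose by 6.43 ± 1.27 (adjusted p = 0.00273). The inhibitor gene Timp1 fell by 3.49. WAP and Kazal inhibitors were lower in 6 of 10 and higher in 2 (80% past the test). Slpi, a secreted protease inhibitor gene, read 6.16, 5.75, 3.11 and 5.48 in PE, against 8.42, 7.97, 7.89 and 8.54 in SVE, a fall of 3.08 ± 0.58 (adjusted p = 0.0022). B2m, the light chain of MHC class I, read 14.52, 14.57, 14.19 and 14.56 in PE, against 17.15, 17.59, 17.14 and 17.56 in SVE, a fall of 2.90 ± 0.19 (adjusted p = 8.75e-06). Its partner heavy chains H2-K1 and H2-D1, near-identical genes whose reads are hard to assign, had differences of 0.31 and 0.25 and did not pass the test (adjusted p = 0.0525 and 0.0709). Both heavy chain genes passed with all 20 libraries in 1 fit, with library weights and without PE replicate 1. In the interferon list 4 of 47 were higher and 10 lower (29.8% past the test), and 4 and 18 without PE replicate 3. Pigr, which carries antibodies across epithelium, rose by 6.09, with PE values from 9.27 to 13.84 and SVE values from 3.17 to 8.16.

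Chromatin lists had medians close to that of all genes. Of 39 genes for H3K9 and H3K27 methylation 6 were higher in PE and 11 lower, and of 33 for DNA methylation and acetylation 5 were higher and 13 lower. Those counts were 43.6% and 54.5% past the test, against 51.8% of all genes. The medians of these lists were -0.05 and -0.07, against 0.022 over all genes. Setdb2, a methyltransferase-family gene, had the widest difference of the methylation list, -1.71. Among 31 cell cycle genes 6 were higher and 7 lower (41.9% past the test), and 2 and 6 without the 3 libraries that stood apart. Ccnd1, the cyclin D1 gene, read 10.89, 10.12, 9.69 and 10.48 in PE, against 12.31, 12.63, 12.90 and 12.65 in SVE, a fall of 2.33 ± 0.24 (adjusted p = 8.11e-05). Mki67, a marker of dividing cells, had a difference of 0.16 and did not pass the test (adjusted p = 0.68).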

How the data were processed

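Poly-A RNA from whole grafts was sequenced with the Illumina HiSeq, per the labels' protocols. TopHat2 2.0.4, Cufflinks 2.0.2, DESeq, bcl2fastq 1.8.4 and the mm9 build are listed in the submitters' processing notes. How genes were counted, with which annotation, and what was done with rat reads is not stated there. The deposited values are on a log2 scale, made by the authors. Between values of 11 and 13 their antilogs are whole multiples of 1 step per library, and values of the lowest genes scatter around a median of 2.27, so reads were not recovered for low genes and no count test was run. Genes with a log2 value of at least 5 in at least 4 of the 20 libraries were tested with limma 3.58.1 (R 4.3.3; lmFit, eBayes with a trend) on the 4 PE and 4 SVE libraries, with Benjamini-Hochberg adjustment and an adjusted p below 0.05 as the threshold. The method was tested on simulated data. Shares of summed antilog values were compared with the exact permutation test in scipy 1.17.1. Depth was read from the step per library, and depth is counting precision only. Groups come from the sample labels.

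The members and lists were chosen with earlier results of these data known, so counts within lists are descriptions, with no test of the list. The permutation tests of both secretory shares have the same limit and describe these libraries only. Families were taken by symbol. Named genes were the key genes of each list, up to 4 called members with the smallest p and 3 with the largest difference per list, the 12 largest rises and falls overall and the 10 among transcription factors, and any other list member described with its list. Promoter windows and synonyms came from RefSeq (GRCm38.p6), and no other coordinates are given because the files use mm9. Alternatives covered all 20 libraries in 1 fit, the filter, the scaling, the variance model, library weights and each library left out. Leaving out the libraries that stood apart together was chosen after seeing the data. Some genes of these lists are not reported here, although they count as list members.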

Additional observations from a re-analysis of the deposited data

Results flagged for a closer look

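Each named gene and both secretory shares were examined within the 4 PE and the 4 SVE libraries for a library whose gap to the nearest of the others took up nearly the whole range. Of 354 such groups of 4, 54 held one. Chance gives about 1 in 20 for independent groups. These groups share the same libraries, and many genes were named for large differences, so the count cannot be set against that share. PE replicate 3 was the library apart in 29, SVE replicate 1 in 22, SVE replicate 3 in 2 and PE replicate 2 in 1. All values are deposited log2 levels unless given as a share.

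Among genes higher in PE, PE replicate 3 lay above the other PE libraries for Cldn10 at 9.15, Esrrg at 9.50, Scd1 at 11.92, Slc26a4 at 11.42 and Upk1a at 12.24. It lay below them for Ldha at 11.96, Muc20 at 7.62, Pfkfb3 at 8.74, Slc30a2 at 11.74, Tmprss2 at 12.69 and Tubb3 at 4.84. Among genes lower in PE, it lay above the other PE libraries, on the side of SVE, for Ank at 12.72, Slc30a4 at 9.32, Spink3 at 17.14 and Trpv6 at 11.06. It lay below them for the patterning genes Emx2 at 4.05, Hoxd3 at 5.25, Pou3f3 at 4.13 and Tfap2b at 3.16. The same held for B2m at 14.19, B3gnt8 at 5.89, Dkkl1 at 6.36, Kcnj15 at 3.60, Plau at 7.96, Psat1 at 10.66, Slc4a8 at 4.40, Smox at 8.06 and Svs2 at 13.86. Its seminal vesicle secretory share was 0.397%, the lowest of the PE libraries.

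In SVE replicate 1 the 21 genes so found all lay on the side of PE. The 18 that were higher in PE included the regulators Foxa1 at 10.24, Pax9 at 4.01 and Sp8 at 8.11, the metallothionein genes Mt1 at 12.67, Mt2 at 12.04 and Mt3 at 9.12, and the zinc importer gene Slc39a8 at 9.97. Metabolic genes among them were Acsl3 at 9.83, Ldha at 10.88, Phgdh at 9.62, Prodh at 10.65 and Sat1 at 9.58. The others were Cldn10 at 6.11, Egf at 11.33, Gdf15 at 6.37, Itga6 at 9.07, Lama3 at 9.92 and Slc45a3 at 9.98. The 3 that were lower in PE were Hoxd9 at 9.78, Slc30a1 at 8.33 and Timp1 at 8.31. Its prostate secretory share was 4.09%, the highest of the SVE libraries.

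PE replicate 2 was the lowest PE library for Canx at 13.12. SVE replicate 3 was the lowest SVE library for Trpv6 at 10.77 and the highest for Emr1 at 7.66.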

How the results depend on the processing

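No paired analysis was possible because the labels and the columns carry no replicate numbers, and the numbers used here only name libraries in accession order. Over the fits with all 20 libraries, no filter, a minimum value of 7, equalised medians, quantile normalisation, no variance trend, library weights and left-out libraries, genes higher in PE numbered 2835 to 4386 and genes lower 2783 to 4291. At 2-fold or more the counts ran from 702 to 1249 higher and 814 to 1169 lower. All of these counts stayed within 1.5 times those reported. Leaving out 1 library at a time, the difference in read share of the prostate secretory list ran from 26.3 to 27.7 percentage points and that of the seminal vesicle secretory list from -59.3 to -54.8, each at p = 0.0571 by the exact permutation test, the smallest that 3 against 4 libraries allow. Equalising medians and quantile normalisation left the direction of every named gene as reported. Mki67, which did not pass the test, had a difference of -0.081 without SVE replicate 1 and up to 0.39 with another library left out. Of 175 named genes, 17 changed their call or direction under at least 1 alternative. The call of Sbp was lost under 5 alternatives and that of Spink3 under 7, in both cases also without PE replicate 4. That of Hoxa11 was lost also with equalised medians, and that of Fkbp5 also with no filter and with no variance trend. Without PE replicate 4 the genes higher and lower in PE numbered 3 and 24 for Wnt, 5 and 19 for FGF, EGF and IGF, and 3 and 10 for DNA methylation and acetylation. Without the 3 libraries that stood apart they numbered 6 and 15 for BMP and TGF-beta, and 3 and 10 for H3K9 and H3K27 methylation. Without SVE replicate 1 and PE replicate 3 together they numbered 10 and 6 for glycolysis, 11 and 5 for unfolded protein sensors, 4 and 22 for interferon, and 11 and 18 for potassium channels. With all 20 libraries in 1 fit, serine and one-carbon genes numbered 9 and 10. The cause was not tested. Genes near the level of the lowest, 2.27, give uncertain differences, and depth of 14.9 to 25.0 M reads limits the precision there. Rat and host reads on mouse genes limit what stromal genes can show.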

Other observations

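Aldehyde dehydrogenase and aldo-keto reductase genes were higher in PE in 13 of 26 and lower in 6, with a median log2 difference of 0.57. That was 73.1% past the test, against 51.8% of all genes. Aldh2, the mitochondrial enzyme that clears acetaldehyde, read 12.82, 12.97, 12.81 and 12.93 in PE, against 11.89, 11.15, 11.34 and 10.95 in SVE, a rise of 1.55 ± 0.18. Aldh1a2, which makes retinoic acid, rose by 3.00, with overlapping groups because PE replicate 1 stood at 8.81 and SVE replicate 1 at 9.10. Of 14 steroid enzyme genes 6 were higher in PE and 3 lower (64.3% past the test), and Cyp7b1, an oxysterol and androgen-metabolite hydroxylase gene, rose by 2.56 ± 0.43.

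Calcium, sodium and TRP channel genes were higher in PE in 11 of 45 and lower in 20 (68.9% past the test). Without PE replicate 4 the counts were 10 and 12. Ryr3, a calcium release channel gene, read 7.06, 6.74, 6.41 and 6.65 in PE, against 9.27, 10.12, 9.95 and 10.23 in SVE, a fall of 3.18 ± 0.22, and Itpr1, the inositol trisphosphate receptor gene, fell by 1.60 ± 0.09. Trpv6, an epithelial calcium channel gene, read 6.63, 6.27, 11.06 and 6.38 in PE, against 11.01, 10.98, 10.77 and 10.97 in SVE, so that PE replicate 3 was at the SVE level, as it was for Ank. Among ETS factors 3 of 21 were higher in PE and 10 lower (61.9% past the test), and without the 3 libraries that stood apart 3 and 4. Ehf, an epithelial member, rose by 1.22 ± 0.14 and Elf5, a luminal member, fell by 1.91 ± 0.22. Guidance genes of the ephrin, semaphorin, netrin and slit families were higher in 9 of 53 and lower in 18. That was 50.9% past the test, close to the 51.8% of all genes. The receptor gene Robo1 was higher by 1.84 ± 0.15 and Ephb4 lower by 1.42 on the log2 scale.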
